A study of Mus musculus with 10 samples.

Results

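The genes that write, copy, read and remove DNA methylation were examined in the lungs of mice with ovalbumin-induced asthma. They were Dnmt1, Uhrf1, Dnmt3a, Dnmt3b, Tet1, Tet2, Tet3, Tdg and Mbd2, and they were chosen by name, with earlier results of these data known. All 9 were present in the deposited expression table, in 27 of its 34943 rows with a gene symbol and among 24394 symbols. The 10 lung samples came from female BALB/c mice bought as young adults. The control group, Saline, had 3 mice. The OVA group (n = 3) received ovalbumin with alum by injection into the abdomen for sensitization and ovalbumin through the nose as challenge. The Herb group (n = 4, called DSE in the study) went through the same ovalbumin protocol and received by mouth an ethanol extract from the seeds of Descurainia sophia. Whole lung tissue was sequenced, so that fewer cells of a type and less RNA per cell cannot be told apart in these values. The study set gene expression beside the methylation of DNA from the same animals, and the methylation data were not used here.

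In mammals DNA methylation sits mostly on cytosines of CpG sites, where it is laid down by Dnmt3a and Dnmt3b on unmarked DNA and copied by Dnmt1 onto the new strand after replication, with Uhrf1 guiding Dnmt1 to the half-methylated sites. Tet1, Tet2 and Tet3 oxidize the methyl group, Tdg cuts the oxidized base out, and repair enzymes put back a plain cytosine. Mbd2 binds methylated CpG and brings the NuRD complex, which removes histone acetyl groups and shifts nucleosomes. Uhrf1 and Dnmt1 are known as genes of dividing cells, whereas Tet2 and Dnmt3a are known for their role in blood and immune cells.

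The promoters of the maintenance pair, Dnmt1 and Uhrf1, are shown because both genes moved the same way after ovalbumin once the libraries were put on a common scale. Dnmt3a and Dnmt3b were also called as higher on that scale, and their promoters are not printed. The printed windows were taken from RefSeq on GRCm38.p6, and each covers 300 bases around a start of transcription. Capitals mark E2F-type motifs (TTTGGCGC, TTTCGCGC, TTTCCCGC or TTTGCCGC) and CCAAT boxes, each searched on both strands. A stretch that reads as CCAAT on both strands counts as 2. The Dnmt1 window at chr9:20952574-20952873 (minus strand) lies at the start of its leading transcript, and the first Uhrf1 window at chr17:56303087-56303386 (plus strand) at that of the leading Uhrf1 transcript. The second Uhrf1 window at chr17:56304063-56304362 (plus strand) lies 992 bases from that start.
Dnmt1: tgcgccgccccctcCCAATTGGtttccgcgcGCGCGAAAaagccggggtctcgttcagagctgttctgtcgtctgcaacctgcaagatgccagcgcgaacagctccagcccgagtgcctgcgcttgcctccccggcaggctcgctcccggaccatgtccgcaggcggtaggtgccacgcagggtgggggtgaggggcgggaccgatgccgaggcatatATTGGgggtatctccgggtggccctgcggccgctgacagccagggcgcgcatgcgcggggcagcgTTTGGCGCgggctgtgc
Uhrf1, first window: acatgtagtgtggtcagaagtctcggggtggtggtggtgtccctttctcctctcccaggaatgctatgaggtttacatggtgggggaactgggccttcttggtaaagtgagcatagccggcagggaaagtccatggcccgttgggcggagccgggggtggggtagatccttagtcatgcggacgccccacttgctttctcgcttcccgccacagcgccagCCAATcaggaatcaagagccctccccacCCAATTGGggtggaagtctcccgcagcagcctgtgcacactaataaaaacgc
Uhrf1, second window: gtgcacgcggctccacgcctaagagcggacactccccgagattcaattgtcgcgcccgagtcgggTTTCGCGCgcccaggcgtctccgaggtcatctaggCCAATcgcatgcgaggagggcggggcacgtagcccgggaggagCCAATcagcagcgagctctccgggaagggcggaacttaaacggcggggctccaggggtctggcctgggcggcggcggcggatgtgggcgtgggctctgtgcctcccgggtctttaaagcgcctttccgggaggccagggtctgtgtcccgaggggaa

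The printed Dnmt1 window held 33 CpG sites, 2 E2F-type motifs and 3 CCAAT boxes. Dnmt1 windows 374 and 7283 bases from its leading start, not printed, held 12 and 2 CpG sites. They held 0 and 5 CCAAT boxes and no E2F-type motif. The first Uhrf1 window held 12 CpG sites, 3 CCAAT boxes and no E2F-type motif, while the second held 33 CpG sites, 1 E2F-type motif and 2 CCAAT boxes. Of all 32851 promoter windows of the same length, 2.26% held an E2F-type motif and 37.4% a CCAAT box, and the median CpG count was 7 with quartiles of 3 and 20. The windows nearest the leading transcripts of the other members held 46 CpG sites in Dnmt3a, 30 in Dnmt3b, 57 in Tet2, 22 in Tet3 and 26 in Tdg, all above the upper quartile of all promoters. The Tet1 window held 17 but lies 11794 bases from the start of its leading transcript. A promoter of Mbd2 was not used here. None of these other windows had an E2F-type motif, and a match or its absence describes only these letters.

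Expression was given as FPKM, which divides the fragments of a transcript by its length and by the mapped total of the library, in 1 row per transcript, and the rows of a gene were summed. The depth, estimated from the lowest values, was 14725000 to 29375000 mapped fragments per library. The libraries of the groups differed as a whole. The share of fragments on protein-coding RefSeq transcripts was 33.0 to 33.3% in Saline, 11.9 to 14.9% in OVA and 19.3 to 25.8% in Herb, and the ribosomal RNA precursor Rn45s stood at 1201 to 1386, 10014 to 13531 and 3230 to 7019 FPKM. Values are therefore given both as deposited and after multiplying each library by a factor (0.742 to 1.63) that sets the 75th percentile of its transcripts to a common value, called the common scale here. How far the difference in RNA composition contributes to any change was not tested. Lung markers were present in all libraries, including the alveolar type 2 gene Sftpc at 2371 to 3228 FPKM in the Saline libraries, 210 to 460 in OVA and 564 to 1268 in Herb and the endothelial gene Pecam1 at 49.6 to 122, 21.8 to 36.7 and 43.9 to 85.5 FPKM. Gapdh was listed at 0 in Saline and OVA, so that an exact 0 can be a failed estimate.

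Mbd2 was the most abundant member in control lung. Its summed level was 20.1 ± 0.56 FPKM (SD, n = 3), followed by Dnmt1 at 5.08 ± 1.08, Tet3 at 4.67 ± 1.49, Tet2 at 3.25 ± 0.57 and Dnmt3a at 2.25 ± 1.95 FPKM. Tdg (0.98 ± 0.017 FPKM), Dnmt3b (0.68 ± 0.13), Tet1 (0.50 ± 0.072) and Uhrf1 (0.40 ± 0.31) lay under 1 FPKM. Neighbours in this order whose libraries did not overlap were Mbd2 and Dnmt1, Tdg and Dnmt3b, and Dnmt3b and Tet1, and all other neighbours overlapped. In OVA the libraries of Mbd2 (5.92 ± 1.37 FPKM), Dnmt1 (5.18 ± 0.45) and Dnmt3a (4.66 ± 1.87) overlapped at the top, and Uhrf1 (1.35 ± 0.74) stood above Tdg, Dnmt3b and Tet1 in the order of means. In Herb the order of means was the same as in OVA, with Mbd2 (10.2 ± 2.87 FPKM, n = 4) above every library of Dnmt1 (5.76 ± 0.59). Tet1 was the lowest member in OVA (0.15 ± 0.048 FPKM) and in Herb (0.31 ± 0.067), below every library of Dnmt3b.

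**Figure D1:**
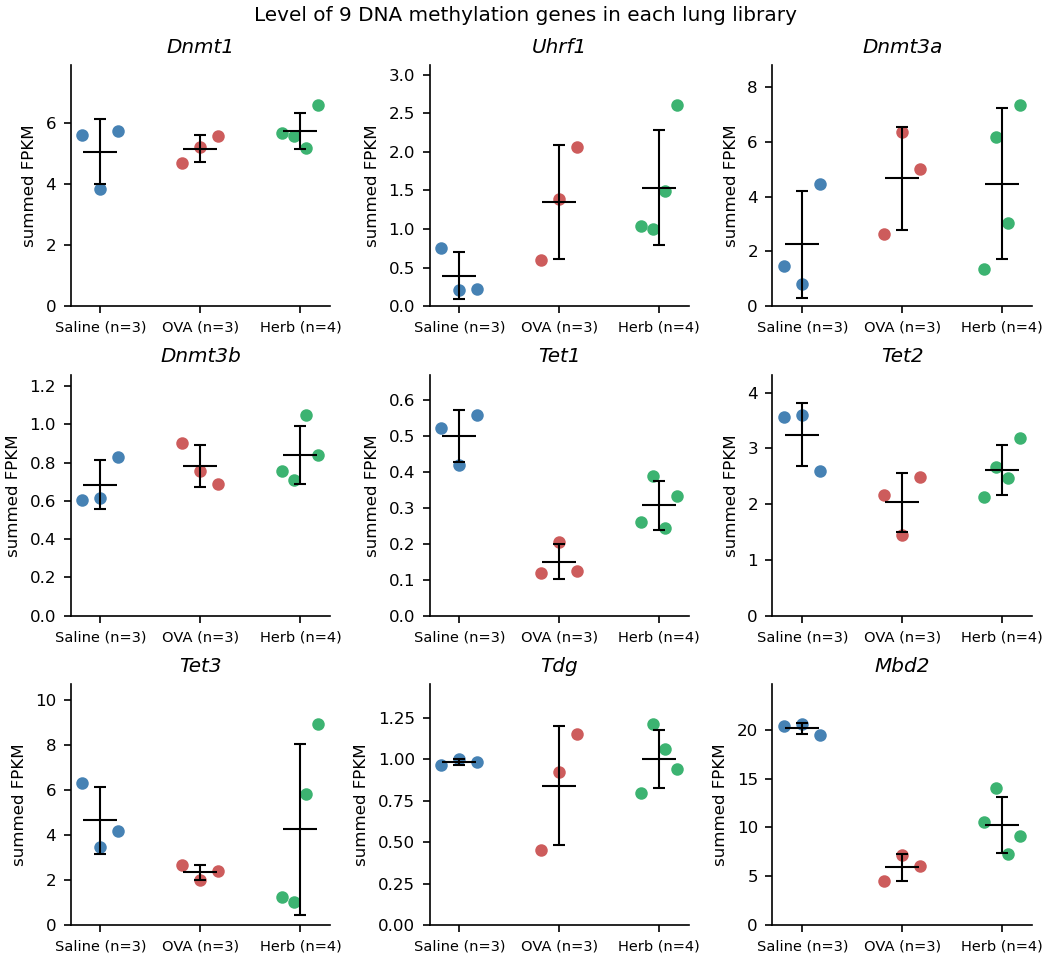
Summed FPKM as deposited (y axes, linear from 0, 1 scale per gene) of the 9 genes in each of the 10 lung libraries, with points for libraries, long ticks for group means and bars for the SD. The 3 Saline libraries of Mbd2 lie at 19.5 to 20.5 FPKM, above all OVA and Herb libraries, whereas those of Dnmt1 overlap with both other groups.

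The differences were tested with limma on log2(FPKM + 1) over all 11205 gene sums whose mean reached 1 FPKM, and a gene is called at an adjusted p under 0.05. Of the members 6 passed this minimum, namely Dnmt1, Uhrf1, Dnmt3a, Tet2, Tet3 and Mbd2, and Dnmt3b, Tet1 and Tdg were taken from the same fit without the minimum, over 20819 gene sums. In OVA vs. Saline as deposited, 2 of the 6 were called (Mbd2 and Tet2, both lower), beside 61.2% of all gene sums (57.9% lower and 3.28% higher). At the common 75th percentile 4 were called, Dnmt1, Uhrf1 and Dnmt3a as higher and Mbd2 as lower, beside 41.6% of all gene sums (17.2% higher and 24.3% lower). Of the 3 genes under the minimum, Tet1 was called as lower on both scales and Dnmt3b as higher on the common scale only, where 36.5% of the 20819 gene sums were called as deposited (33.9% lower) and 25.1% on the common scale (12.2% higher and 13.0% lower). The median difference of all gene sums was -0.75 as deposited and -0.09 at the common 75th percentile, and over the 20819 gene sums it was -0.20 and 0.01.

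In Herb vs. OVA as deposited, 1 of the 6 was called (Mbd2, higher) beside 44.5% of all gene sums (44.0% higher), with a median of 0.48 over all gene sums, and Tet1 was called as higher without the minimum, where the share of calls was 21.3% (21.0% higher). At the common 75th percentile none of the 9 was called in Herb vs. OVA by limma, and 0.741% of all gene sums were. There Dnmt1 alone had an unadjusted p under 0.05 (adjusted p = 0.108 in limma). In Herb vs. Saline 1 of the 6, Mbd2, was called as lower on both scales, beside 26.1% of all gene sums as deposited (22.7% lower) and 15.1% on the common scale (9.56% lower). Of single transcripts 5 of the members reached 1 FPKM on average, and as deposited 1 of them, the Mbd2 transcript, was called in each comparison, beside 44.2% of all tested transcripts in OVA vs. Saline, 32.4% in Herb vs. OVA and 8.09% in Herb vs. Saline. The 3 comparisons share libraries, so that their values are not independent of each other.

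Groups that did not overlap were also counted, beside the share among gene sums that reached 1 FPKM. Of the members named here, Tet1 and Dnmt3b lay under that minimum and thus outside the set behind the share. As deposited, OVA lay wholly below Saline for 4 of the 9 members (Mbd2, Tet1, Tet2 and Tet3), as for 63.0% of all gene sums tested, and wholly above for none. Herb lay wholly above OVA for 2 members (Mbd2 and Tet1), as for 49.6% of the gene sums. Herb lay wholly below Saline for Mbd2 and Tet1 (36.6%) and wholly above it for Uhrf1 (6.94%). On the common scale OVA lay above Saline for 4 members (Dnmt1, Dnmt3a, Dnmt3b and Uhrf1) beside 23.3% of the gene sums and below it for 2 (Mbd2 and Tet1) beside 31.3%. Herb lay below OVA on that scale for 1 member, Dnmt1, beside 10.1%. Herb lay above Saline there for Dnmt1 and Uhrf1 (15.4%) and below it for Mbd2 and Tet1 (23.3%).

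**Figure D2:**
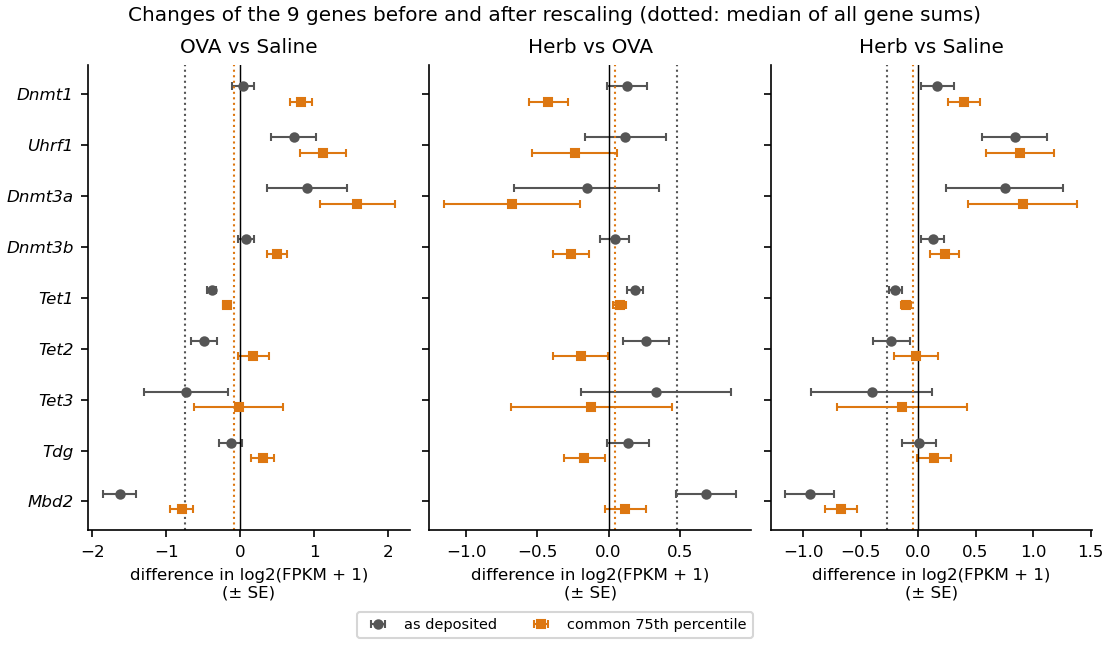
Differences in log2(FPKM + 1) between groups (x axis, points with bars for the SE from limma) for the 9 genes, as deposited (grey circles) and at a common 75th percentile (orange squares), with dotted lines at the median of all gene sums and a solid line at 0. In OVA vs. Saline, Mbd2 lies left of 0 on both scales (-1.63 and -0.79) and Dnmt1 moves from 0.04 to 0.82.

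The maintenance pair came first. Dnmt1, the enzyme that copies methylation after replication (chr9:20907206-20959888), stood at 5.63, 3.84 and 5.76 FPKM in the Saline libraries, 4.70, 5.24 and 5.59 in OVA and 5.68, 5.59, 5.20 and 6.59 in Herb. The groups overlapped as deposited. Rescaled, the values were 4.28, 3.01 and 4.27 in Saline, 7.65, 6.93 and 7.94 in OVA and 5.07, 4.57, 5.34 and 6.51 in Herb, and no 2 groups overlapped. The log2 difference for OVA vs. Saline was 0.04 ± 0.15 (SE, adjusted p = 0.849) as deposited and 0.82 ± 0.15 (adjusted p = 0.00309) on the common scale. After rescaling it was -0.42 ± 0.14 for Herb vs. OVA (adjusted p = 0.108) and 0.40 ± 0.14 for Herb vs. Saline (adjusted p = 0.0833). Leaving out each library in turn kept the common-scale difference of OVA vs. Saline between 0.69 and 0.89 and called throughout. The transcript NM_001199433 held 91.5 to 96.6% of the Dnmt1 signal in every library, so that the sum was in effect this transcript.

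Uhrf1, the partner that recognizes half-methylated CpG (chr17:56303337-56323486), stood at 0.75, 0.22 and 0.22 FPKM in the Saline libraries, 0.60, 1.39 and 2.07 in OVA and 1.04, 1.01, 1.50 and 2.60 in Herb. All Herb libraries lay above all Saline libraries, and OVA overlapped with both. These values rested on an estimated 16.4 to 182 fragments per library. The group means differed 3.40-fold between OVA and Saline and 3.87-fold between Herb and Saline, and 6.16-fold and 7.01-fold without Saline replicate 1, the highest of its group. The log2 difference was 0.72 ± 0.30 for OVA vs. Saline (adjusted p = 0.0652) and 0.84 ± 0.28 for Herb vs. Saline (adjusted p = 0.0567) as deposited. Rescaled, it was 1.12 ± 0.32 for OVA vs. Saline (adjusted p = 0.0207), where the groups no longer overlapped, and 0.88 ± 0.30 for Herb vs. Saline (adjusted p = 0.0751). The common-scale call for OVA was lost without Saline replicate 2, Saline replicate 3 or OVA replicate 3 (adjusted p up to 0.0639), and as deposited OVA vs. Saline was called without Saline replicate 1, OVA replicate 1 or Herb replicate 4 and Herb vs. Saline without OVA replicate 1. The transcript NM_010931 carried all of the Saline signal, whereas NM_001111079 and NM_001111078 were above 0 in OVA replicates 1 and 3 and Herb replicates 2 and 3, where they reached 0.26 and 0.46 FPKM at most.

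Among the de novo enzymes, Dnmt3a (chr12:3801559-3914443) varied widely within groups. It stood at 1.48, 0.80 and 4.47 FPKM in the Saline libraries, 2.65, 6.34 and 4.99 in OVA and 1.37, 6.16, 3.03 and 7.33 in Herb. High and low libraries occurred in every group. The log2 difference for OVA vs. Saline was 0.90 ± 0.54 (adjusted p = 0.178) as deposited and 1.59 ± 0.51 (adjusted p = 0.0343) on the common scale, and the latter call was lost without Saline replicate 1, Saline replicate 2, OVA replicate 2 or OVA replicate 3 (adjusted p up to 0.114). Herb vs. OVA was not called on either scale (-0.15 ± 0.51 as deposited and -0.68 ± 0.48 on the common scale, adjusted p = 0.825 and 0.391). The long transcript NM_007872 held 82.7 to 100% of the signal. The short transcript NM_153743, which starts inside the gene, held 17.3% in OVA replicate 1 and at most 0.253% elsewhere.

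The low Dnmt3a libraries had signal in a transcript model that the authors' pipeline assembled from the reads and that stands directly before the Dnmt3a rows in the table. This model, which has no gene symbol and no coordinates, was picked after its values were seen, and 3 other models listed among the Dnmt3a rows were not added. It stood at 3.83, 2.96 and 0 FPKM in the Saline libraries, 3.17, 0 and 0.99 in OVA and 5.33, 0, 4.17 and 0 in Herb. It was thus at 0 in the Saline, OVA and Herb libraries with the highest Dnmt3a values. Dnmt3a and the model together gave 5.32, 3.76 and 4.47 FPKM in the Saline libraries, 5.82, 6.34 and 5.99 in OVA and 6.71, 6.16, 7.20 and 7.33 in Herb, and every library of OVA and Herb lay above every Saline library. Adding the model took the coefficient of variation from 86.7 to 17.2% among Saline libraries, 40.1 to 4.38% among OVA libraries and 61.4 to 7.75% among Herb libraries. The summed log2 difference was 0.36 ± 0.13 for OVA vs. Saline (adjusted p = 0.0342), 0.15 ± 0.12 for Herb vs. OVA (adjusted p = 0.323) and 0.52 ± 0.12 for Herb vs. Saline (adjusted p = 0.0179) as deposited. At the common 75th percentile these were 1.15 ± 0.15 (adjusted p = 0.00113), -0.41 ± 0.14 (adjusted p = 0.116) and 0.74 ± 0.14 (adjusted p = 0.0161). Whether the model belongs to Dnmt3a was not tested. Since it was picked after its values were seen, the smaller spread and the adjusted p-values of the sum are descriptions, not tests. Assembled models also stand beside Dnmt3b (2), Tet2 (2) and Mbd2 (4), and these were not added.

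Dnmt3b (chr2:153649411-153687730), the second de novo enzyme and one best known from early embryos, was low in all libraries. It stood at 0.61, 0.62 and 0.83 FPKM in the Saline libraries, 0.90, 0.76 and 0.69 in OVA and 0.76, 0.71, 1.05 and 0.84 in Herb, and the groups overlapped. After rescaling, OVA (0.98 to 1.47) lay above Saline (0.46 to 0.62) with a log2 difference of 0.49 ± 0.14 (adjusted p = 0.0283), which was lost without any 1 of the Saline libraries or without OVA replicate 1 (adjusted p up to 0.0834). Of its 9 transcripts 5 were listed at 0 in all libraries, and NM_001003961 held 71.8 to 100% of the signal. The Dnmt3b level was measured from an estimated 39.3 to 112 fragments per library.

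As deposited, OVA lay below Saline for each of the 3 Tet enzymes, with a call for Tet1 and Tet2, and on the common scale for Tet1 alone. Whether the enzymes differ from each other was not tested. Tet1 (chr10:62804570-62887469) stood at 0.52, 0.42 and 0.56 FPKM in the Saline libraries, 0.12, 0.21 and 0.13 in OVA and 0.26, 0.39, 0.24 and 0.33 in Herb. The 3 groups were apart from each other, with OVA lowest and Saline highest. Group means differed 3.33-fold between Saline and OVA and 2.04-fold between Herb and OVA, at an estimated 36.5 to 164 fragments per library. On the log2(FPKM + 1) scale, which compresses such low values, the difference was -0.38 ± 0.06 for OVA vs. Saline (adjusted p = 0.00111), 0.18 ± 0.06 for Herb vs. OVA (adjusted p = 0.0474) and -0.20 ± 0.06 for Herb vs. Saline (adjusted p = 0.0501). Rescaling gave -0.18 ± 0.05 (adjusted p = 0.0262), 0.08 ± 0.05 (adjusted p = 0.401) and -0.11 ± 0.05 (adjusted p = 0.208), and when protein-coding transcripts were set to a common sum the first was -0.05 ± 0.05 (adjusted p = 0.537). As deposited the call in OVA vs. Saline held without any single library, whereas on the common scale it was lost without Saline replicate 1, Saline replicate 3, OVA replicate 1 or OVA replicate 3 (adjusted p up to 0.0765). The deposited call in Herb vs. OVA held only without Saline replicate 2, OVA replicate 2 or Herb replicate 3 and was lost without each other library (adjusted p up to 0.141), and Herb vs. Saline was called without Herb replicate 2 (adjusted p = 0.0306).

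Tet2 (chr3:133463677-133545136), the Tet enzyme most studied in blood cells, stood at 3.56, 3.60 and 2.59 FPKM in the Saline libraries, 2.17, 1.45 and 2.49 in OVA and 2.13, 2.67, 2.48 and 3.19 in Herb. All OVA libraries lay below all Saline libraries, and Herb overlapped with both. The log2 difference for OVA vs. Saline was -0.49 ± 0.17 (adjusted p = 0.0327) as deposited, above the median of all gene sums. It turned to 0.18 ± 0.21 (adjusted p = 0.521) on the common scale and to 0.62 ± 0.21 (adjusted p = 0.0386) when the protein-coding transcripts were set to a common sum. With that common sum the median of all gene sums was 0.35. The call as deposited was lost without Saline replicate 1, Saline replicate 2, OVA replicate 1 or OVA replicate 2 (adjusted p up to 0.113).

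Tet3 (chr6:83362373-83457208) stood at 6.34, 3.48 and 4.20 FPKM in the Saline libraries, 2.66, 1.99 and 2.40 in OVA and 1.27, 1.02, 5.83 and 8.94 in Herb. OVA lay below Saline, but the Herb libraries fell into a pair below every OVA library and a pair of which Herb replicate 3 lay within and Herb replicate 4 above the Saline range. No comparison was called on either scale (log2 difference -0.73 ± 0.56 for OVA vs. Saline as deposited, adjusted p = 0.284). The 4 assembled models of 1 locus that follow the Tet3 row in the table, also picked after their values were seen, summed to 3.15, 2.61 and 3.87 FPKM in the Saline libraries, 4.05, 5.17 and 4.95 in OVA and 5.97, 7.23, 3.0 and 0.86 in Herb. They were highest in the Herb libraries in which Tet3 was lowest. Tet3 and these models together gave 9.49, 6.09 and 8.07 FPKM in the Saline libraries, 6.71, 7.16 and 7.36 in OVA and 7.24, 8.25, 8.83 and 9.80 in Herb, and the coefficient of variation in Herb fell from 89.5 to 12.5%. The log2 difference of this sum for OVA vs. Saline was -0.12 ± 0.16 (adjusted p = 0.55) as deposited and 0.70 ± 0.18 (adjusted p = 0.0134) on the common scale. Whether these models belong to Tet3 was not tested, and because of how they were picked the spread and adjusted p-values of the sum are descriptions only.

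**Figure D3:**
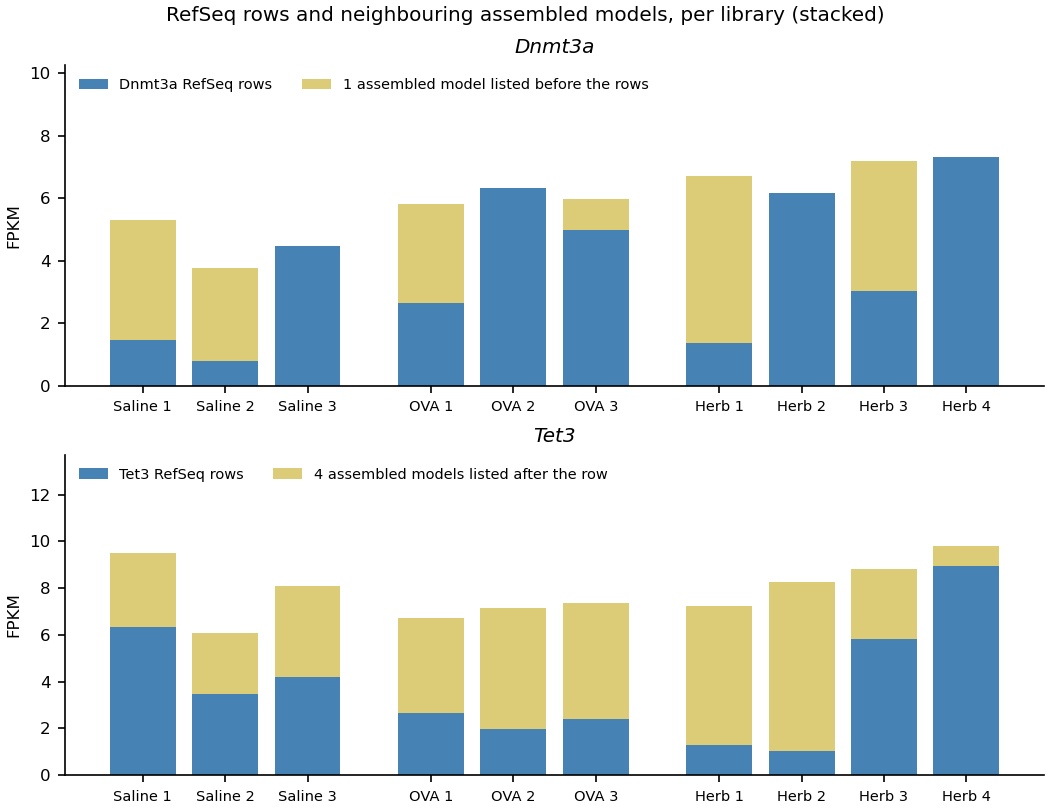
FPKM as deposited (y axis) in each of the 10 libraries (x axis) of the RefSeq rows of Dnmt3a and Tet3 (blue) with the neighbouring assembled models stacked on top (yellow). The stacked heights of the Herb libraries span 6.16 to 7.33 FPKM for Dnmt3a and 7.24 to 9.80 FPKM for Tet3, while the blue parts span 1.37 to 7.33 and 1.02 to 8.94 FPKM.

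Tdg (chr10:82629814-82650799), the glycosylase that removes the oxidized base, had group means near 1 FPKM. It stood at 0.97, 1.00 and 0.98 FPKM in the Saline libraries, 0.45, 0.92 and 1.15 in OVA and 0.80, 1.21, 1.06 and 0.94 in Herb. The groups overlapped, and no comparison was called on either scale (OVA vs. Saline -0.13 ± 0.15 as deposited, adjusted p = 0.577, and 0.31 ± 0.16 on the common scale, adjusted p = 0.194). In OVA replicate 1 the whole signal was listed under the transcript NM_011561 and none under NM_172552, and in the other libraries it was the reverse. Without that library the common-scale difference for OVA vs. Saline was 0.47 (adjusted p = 0.035), and with all libraries and the protein-coding transcripts set to a common sum it was 0.59 ± 0.15 (adjusted p = 0.018). With that common sum the median over the 20819 gene sums was 0.13.

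Mbd2, the reader of methylated CpG, had the largest absolute difference in log2(FPKM + 1) of the members tested in OVA vs. Saline as deposited, whereas on the common scale the differences of Dnmt3a, Uhrf1 and Dnmt1 were larger. The added 1 compresses low values, so this order depends on the scale. Group means as deposited differed 3.40-fold for Mbd2 and 3.33-fold for Tet1 (Saline over OVA) and 3.40-fold for Uhrf1 (OVA over Saline). Mbd2 stood at 20.4, 20.5 and 19.5 FPKM in the Saline libraries, 4.49, 7.22 and 6.05 in OVA and 10.5, 14.1, 7.28 and 9.11 in Herb. The 3 groups did not overlap, although Herb replicate 3 (7.28 FPKM) and OVA replicate 2 (7.22 FPKM) nearly met. The mean was 3.40-fold higher in Saline than in OVA and 1.73-fold higher in Herb than in OVA. The log2 difference was -1.63 ± 0.23 for OVA vs. Saline (adjusted p = 0.000303), 0.69 ± 0.21 for Herb vs. OVA (adjusted p = 0.0278) and -0.94 ± 0.21 for Herb vs. Saline (adjusted p = 0.0159) as deposited. The rescaled libraries were at 15.5, 16.1 and 14.5 in Saline, 7.31, 9.55 and 8.59 in OVA and 9.41, 11.5, 7.48 and 9.0 in Herb, where OVA and Herb overlapped and Saline stayed above both. The difference was then -0.79 ± 0.15 for OVA vs. Saline (adjusted p = 0.00411), 0.12 ± 0.14 for Herb vs. OVA (adjusted p = 0.629) and -0.67 ± 0.14 for Herb vs. Saline (adjusted p = 0.0204). With the protein-coding transcripts set to a common sum the difference for OVA vs. Saline was -0.23 ± 0.14 (adjusted p = 0.218) and with quantile normalization it was -0.38 ± 0.15 (adjusted p = 0.0762). For Herb vs. Saline the protein-coding sum gave -0.31 ± 0.13 (adjusted p = 0.122). The call in OVA vs. Saline held without any single library on both scales. The deposited call in Herb vs. OVA was lost without OVA replicate 1, OVA replicate 3, Herb replicate 1 or Herb replicate 2 (adjusted p up to 0.1), and that in Herb vs. Saline without Saline replicate 2 (adjusted p = 0.0581), and on the common scale Herb vs. Saline was lost without Saline replicate 1, Saline replicate 2 or Herb replicate 3 (adjusted p up to 0.0814).

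Ratios between 2 members in the same library do not change with the scale of the library. The ratio of Mbd2 to Dnmt1 was 3.62, 5.35 and 3.38 in Saline, 0.96, 1.38 and 1.08 in OVA and 1.86, 2.52, 1.40 and 1.38 in Herb, so that the reader was the more abundant in every Saline and Herb library and about level with Dnmt1 in OVA. The ratio of Dnmt1 to Tet1 was 10.8, 9.16 and 10.3 in Saline, 39.5, 25.4 and 44.6 in OVA and 21.8, 14.3, 21.3 and 19.8 in Herb. In both ratios the groups lay apart in all 3 comparisons, with Herb between Saline and OVA. For Mbd2 to Dnmt1, however, Herb replicate 4 (1.382) and OVA replicate 2 (1.378) nearly met. The ratios of Mbd2 to Dnmt1 and of Dnmt1 to Tet1 were picked after the values were seen and were not tested. The ratio of Dnmt1 to Uhrf1 was 7.48, 17.9 and 25.8 in Saline, 7.85, 3.78 and 2.70 in OVA and 5.44, 5.55, 3.47 and 2.53 in Herb. It was lower in all Herb libraries than in all Saline libraries (log2 difference -1.90, two-sided exact permutation test, p = 0.0571, adjusted p = 0.48 over 12 tests of 4 ratios), which is the smallest p that 3 against 4 libraries allow. The other tested ratios, Dnmt3a to Dnmt3b, Dnmt3a to Tet2 and Tet2 to Tet3, had overlapping groups in every comparison, with exact p-values of at least 0.171.

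**Figure D4:**
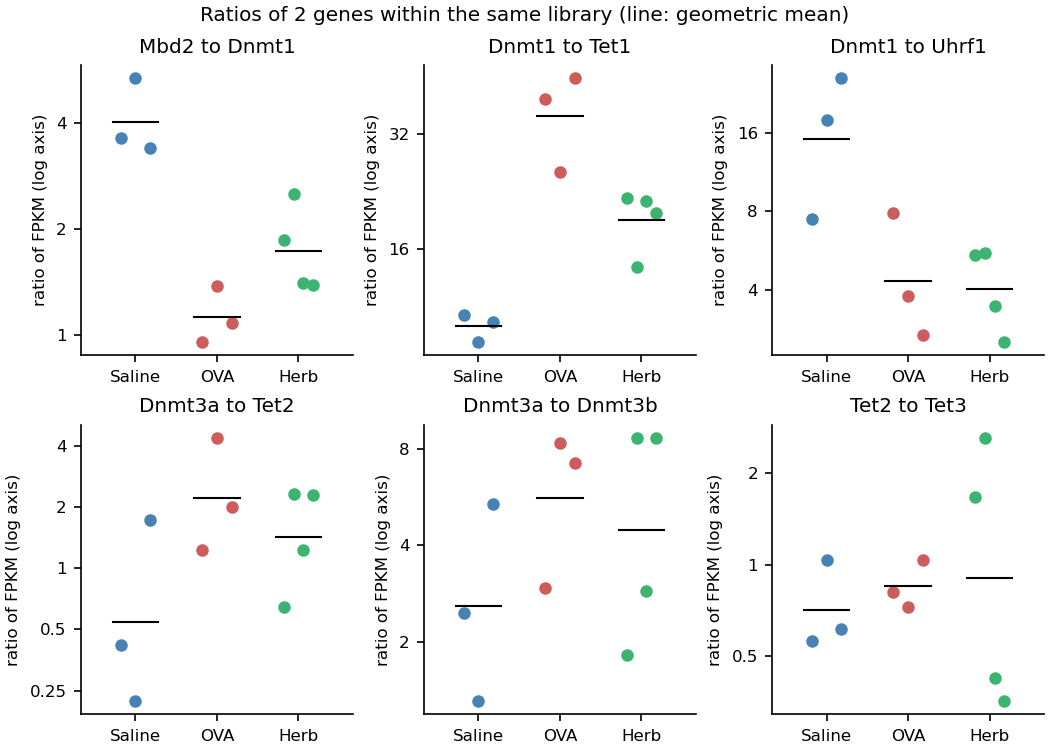
Ratio of the summed FPKM of 2 genes within the same library (y axis, log scale with base 2) for 6 pairs of members, with points for libraries and lines for the geometric mean of a group. For Mbd2 to Dnmt1 and Dnmt1 to Tet1 the 3 groups are apart with Herb in the middle, while the other 4 pairs overlap between groups in at least 1 comparison. For Mbd2 to Dnmt1 the lowest Herb library (1.382) and the highest OVA library (1.378) nearly meet.

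Since Uhrf1 and Dnmt1 are genes of dividing cells, they were set beside 10 markers of cycling cells. The summed level of these markers was 8.42 to 11.2 FPKM in the Saline libraries, 8.35 to 17.2 in OVA and 15.2 to 27.7 in Herb, and on the common scale 6.24 to 8.48, 13.6 to 24.4 and 12.4 to 27.4. Of the 7 markers above the minimum, none was called in OVA vs. Saline as deposited, beside 61.2% of all gene sums. On the common scale 4 were called as higher, beside 17.2%. The proliferation marker Mki67 stood at 2.90, 2.38 and 2.04 FPKM in the Saline libraries, 1.97, 3.92 and 4.07 in OVA and 5.62, 4.71, 4.45 and 6.97 in Herb. The topoisomerase Top2a stood at 1.92, 1.23 and 1.14 FPKM in the Saline libraries, 1.97, 2.53 and 3.66 in OVA and 3.27, 1.64, 3.67 and 5.68 in Herb. Saline libraries lay apart from the rest in the common-scale sum, so correlations were computed over the 7 OVA and Herb libraries only, on log2 values at the common 75th percentile. There Uhrf1 followed the cycling markers with r = 0.955 (Spearman's rho = 0.929, and r = 0.918 without the 2 libraries farthest from the median). Dnmt1 gave r = 0.52 (rho = 0.5, and r = 0.323 without the 2 farthest), and Mbd2 r = -0.129. The points share libraries and their scaling, and the part of cycling cells in the change of Uhrf1 was not tested. The ratio of Dnmt1 to Mki67 was 1.94, 1.61 and 2.83 in Saline, 2.39, 1.34 and 1.37 in OVA and 1.01, 1.19, 1.17 and 0.95 in Herb, where every Herb library lay below every other library.

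Marker RNA of other cell types differed between the groups as well. On the common scale, the markers called as lower in OVA vs. Saline were 3 of 4 for alveolar type 1 cells, 4 of 6 for alveolar type 2 cells, 3 of 5 for endothelial cells, 2 of 3 for club cells, 3 of 4 for erythroid cells, 2 of 6 for B and plasma cells, 2 of 2 for T cells and 3 of 3 for eosinophils, with none called as higher in these lists. Macrophages and ciliated cells had 1 marker called as higher and none as lower, and neutrophils and cardiac muscle 1 in each direction. Over all gene sums 24.3% were called as lower and 17.2% as higher. The markers of a list did not all run the same way. The summed FPKM of the 7 eosinophil markers as deposited was 24.3 to 48.2 in Saline, 4.65 to 10.2 in OVA and 9.92 to 14.1 in Herb, carried by Ear1, Ear2 and Siglecf, the 3 that were tested. Of those under the minimum, the granule gene Prg2 was listed at 0 in all Saline libraries and stood at 1.25, 1.65 and 0.88 FPKM in OVA and 0.98, 0.0, 0.73 and 2.14 in Herb, and the receptor Ccr3 stood at 0.041, 0.043 and 0.10 FPKM in Saline and 0.12, 0.30 and 0.11 in OVA. On the common scale the granule gene Epx stood at 0, 0.014 and 0 in Saline and 0.051, 0.113 and 0.070 in OVA. It was at 0, 0, 0.016 and 0.113 in Herb. In lung lavage fluid the study counted more eosinophils in OVA than in Saline mice, and fewer in Herb than in OVA. The sum of the macrophage list was 102 to 217, 84.0 to 285 and 357 to 629 FPKM, most of it Chil3, which stood at 87.5, 163 and 71.0 FPKM in the Saline libraries, 69.7, 256 and 142 in OVA and 514, 320, 593 and 454 in Herb. As deposited, Cd68 was lower in every OVA and Herb library than in every Saline library. It stood at 9.02, 13.0 and 6.68 FPKM in Saline, 1.49, 3.03 and 3.91 in OVA and 3.69, 4.11, 4.13 and 5.51 in Herb. Cd68 and Fabp4 were called as lower in OVA vs. Saline as deposited, and neither was on the common scale. There the Cd68 groups overlapped, with the lowest Saline library at 4.95, OVA replicate 3 at 5.55 and Herb replicate 4 at 5.44. Adgre1 of the list stood there at 2.61 to 3.39 in Saline, 2.83 to 5.08 in OVA and 4.83 to 7.62 in Herb. These markers were named after their values were seen. None of the markers found in the table was at 0 in all libraries. The part of these cell types in the change of any member was not tested.

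The wider pathway was examined in 7 lists of 89 genes outside the 9 members, of which 65 had a mean of at least 1 FPKM. As deposited, 30 were called as lower and 1 as higher in OVA vs. Saline, with a median log2 difference of -0.46 against -0.75 over all gene sums. Over all gene sums 57.9% were called as lower and 3.28% as higher in that comparison. In Herb vs. OVA 18 of the 65 were called as higher and none as lower, beside 44.0% of all gene sums called as higher. On the common scale 12 were called as higher and 12 as lower in OVA vs. Saline (median 0.22 against -0.09), none in Herb vs. OVA (0.741% of all gene sums), and 3 as higher and 6 as lower in Herb vs. Saline (15.1%). The share of calls, 24 of 65 in OVA vs. Saline, stood beside 41.6% of all gene sums.

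On the common scale, the methyl donor genes were mixed in OVA vs. Saline, with 5 of 12 called as lower and 3 as higher, beside 24.3% and 17.2% of all gene sums. Mat2a, the enzyme that makes S-adenosylmethionine, stood at 16.4, 27.7 and 23.9 FPKM in the Saline libraries, 6.47, 6.57 and 6.38 in OVA and 7.84, 7.72, 6.64 and 7.45 in Herb. It was low in all libraries exposed to ovalbumin, with a log2 difference of -0.78 for OVA vs. Saline (adjusted p = 0.00854) and -1.18 ± 0.17 for Herb vs. Saline (adjusted p = 0.0101). Mat2b, its regulatory subunit, stood at 16.1, 15.8 and 13.9 FPKM in the Saline libraries, 3.10, 4.37 and 3.37 in OVA and 8.48, 9.57, 6.01 and 6.74 in Herb, and fell by 1.03 ± 0.12 on the log2 scale in OVA vs. Saline (adjusted p = 0.00097). Gnmt, which uses up the methyl donor, stood at 1.61, 5.30 and 2.88 FPKM in the Saline libraries and at 0.51, 0.44 and 0.26 in OVA, a difference of -1.06 ± 0.28 on the common scale (adjusted p = 0.015).

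The counts of calls that follow stand beside 24.3% of all gene sums called as lower and 17.2% as higher in OVA vs. Saline on the common scale. Of the maintenance and writer partners 2 of 6 were called as lower in that comparison and none as higher. They were Pcna, the sliding clamp of replication (16.9, 20.7 and 15.4 FPKM in the Saline libraries and 2.62, 4.33 and 5.90 in OVA), with a log2 difference of -1.05 ± 0.20 (adjusted p = 0.00419), and Trdmt1, a tRNA methyltransferase of the Dnmt family (2.58 to 2.90 FPKM in the Saline libraries and 0.66 to 0.83 in OVA), with -0.57 ± 0.14 (adjusted p = 0.0116). Pcna thus fell where Dnmt1 and Uhrf1 were called as higher. Of the 7 tested methyl-CpG readers other than Mbd2, 2 were called as lower, among them Zbtb33 (Kaiso), and 1 as higher, Mbd4, a reader that is also a glycosylase. Zbtb33 stood at 6.22, 6.53 and 6.16 FPKM in the Saline libraries, 1.18, 1.80 and 1.78 in OVA and 3.5, 4.21, 3.0 and 3.05 in Herb. Of 8 tested NuRD partners of Mbd2, Rbbp7 and Hdac2 were called as lower and Mta1 as higher. The histone deacetylase Hdac2 stood at 15.6, 15.8 and 15.2 FPKM in the Saline libraries and 4.28, 6.90 and 5.04 in OVA, with a difference of -0.56 ± 0.12 on the common scale (adjusted p = 0.00721).

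On the common scale 17.2% of all gene sums were called as higher and 24.3% as lower in OVA vs. Saline, beside the counts that follow. Of the 12 tested base excision repair genes, which act after Tet and Tdg, 4 were called as higher and none as lower there. Among them were Neil1, Xrcc1 and the DNA ligase Lig1 (1.56, 1.01 and 1.20 FPKM in the Saline libraries, 1.55, 2.05 and 2.48 in OVA) with a difference of 1.00 ± 0.14 (adjusted p = 0.00139). As deposited the same list had 5 called as lower and 1 as higher, beside 57.9% and 3.28% of all gene sums. Among the cofactors and partners of Tet, 2 of 10 were called as higher (Gadd45g and D2hgdh) and 1 as lower (Idh3a). Among histone methylation and heterochromatin genes 1 of 10, Ehmt1, was called as higher and none as lower.

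**Figure D5:**
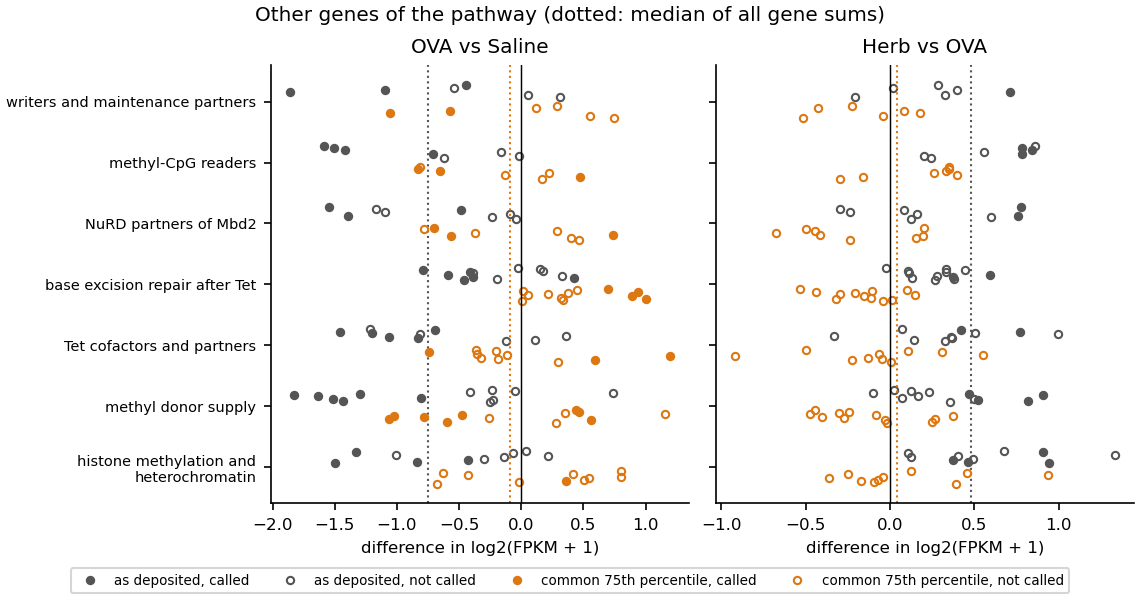
Differences in log2(FPKM + 1) (x axis) of the tested genes of the 7 pathway lists (rows) in OVA vs. Saline and Herb vs. OVA, as deposited (grey) and at a common 75th percentile (orange), with filled points for called genes and dotted lines at the median of all gene sums. On the common scale 24 of the 65 genes are filled in OVA vs. Saline and none in Herb vs. OVA.

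The genes most like each member across the 10 libraries were found by Pearson's r on log2 values at the common 75th percentile among 11204 other gene sums. For Dnmt1 they were Mkl1 (r = 0.986) and Plekhm1 (r = 0.984), for Uhrf1 Csf2rb2 (r = 0.993) and Plekho2 (r = 0.979), and for Mbd2 Zfp763 (r = 0.989) and Kpna1 (r = 0.982). The best matches were lower for Dnmt3a (Srpk3, r = 0.952, and Wdr5b, r = 0.917), Tet2 (Txnrd2 and Sertad3, r = 0.882 each) and Tet3 (C2cd2l, r = 0.871). These values are descriptions over libraries of 3 groups that differ as a whole.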

How the data were processed

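RNA of lung tissue from 10 mice was sequenced as paired reads. Per the labels RNA was taken with Trizol and a TruSeq RNA kit, whereas the study's methods name a NucleoSpin kit and stranded TruSeq libraries, so that use of strand is not certain. Per the submitters' processing notes the authors trimmed reads with cutadapt 1.10, aligned them to mm10 with HISAT2 and assembled transcripts with StringTie 1.3.3b. The deposited table gives FPKM per transcript, computed by the authors, including models assembled from the reads. The study tested counts with edgeR (3.16.5 in the submitters' processing notes, another version in the study's methods), which were not used here. Only 43.5 to 51.6% of low values lay within 0.1 of a whole multiple of the best-fitting step, so counts were not recovered. That step was smaller than 1 fragment.

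Rows were summed per symbol, log2(FPKM + 1) was fitted with limma 3.58.1 in R 4.3.3 over all 3 groups without covariates, and p-values were adjusted by Benjamini-Hochberg over all gene sums tested. The common scale multiplies each library to reach the same 75th percentile. Ratios and transcript shares were compared with exact two-sided permutation tests. Of 32 tests of transcript shares none passed (smallest p = 0.0571, adjusted p = 0.914 by the exact test). The fit was tested on simulated data. Figures and tables were made with matplotlib 3.10.9 and pandas 2.3.3 in Python 3.11.15, with scipy 1.17.1 and numpy 2.4.6. Depth was estimated from the lowest values with RefSeq lengths, so fragment numbers are approximate and cover counting error only. Groups came from the sample titles. Each library is labelled as a replicate without a named animal, so p-values measure the spread between these libraries. Replicate numbers were not stated to pair libraries and were not used as pairs in the main fit. Named pathway genes were up to 3 per list with the largest called changes among those whose groups did not overlap, others were named to complete a count after their values were seen, and the genes most like a member were the 2 with the highest r. Results for some genes that this rule named are not reported here. Members, lists and marker genes were chosen with earlier results of these data known. The sums with assembled models, the leave-one-out fits on the common scale, the ratios to Dnmt1 without a test and the folds without each library were added after seeing the data.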

Additional observations from a re-analysis of the deposited data

Results flagged for a closer look

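Of the 22 groups of 4 libraries that were examined, 2 held a library far from the other 3, where chance alone gives about 1 in 20. The log2 ratio of Dnmt1 to Tet2 in Herb was 1.417 in Herb replicate 1, against 1.069 in the nearest Herb library. The share of Dnmt3a held by the transcript NM_007872 in Herb was 99.11% in Herb replicate 3, against 99.97% in the nearest library.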

How the results depend on the processing

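The main counts of calls in OVA vs. Saline, Herb vs. OVA and Herb vs. Saline were 6853, 4982 and 2921 over all gene sums, 2, 1 and 1 over the 6 members tested, 1, 1 and 1 over the 5 member transcripts and 31, 18 and 17 over the pathway lists. At the common 75th percentile Herb vs. OVA gave 83 gene sums, 0 members, 0 transcripts and 0 pathway genes, OVA vs. Saline gave 4 members and 2 transcripts, and Herb vs. Saline gave 1694 gene sums and 9 pathway genes. With protein-coding transcripts set to a common sum, Herb vs. OVA gave 621 gene sums, 0 members, 0 transcripts and 4 pathway genes, OVA vs. Saline 4 members (Dnmt1, Uhrf1, Dnmt3a and Tet2, all as higher) and 2 transcripts, and Herb vs. Saline 2 members (Dnmt1 0.70 and Uhrf1 0.97, both as higher, with the call of Mbd2 lost). Of all 11205 gene sums, that setting called 5226 in OVA vs. Saline, 4239 of them as higher, with a median difference of 0.35. In Herb vs. Saline it called 2385, of which 2065 were higher, with a median of 0.23. Quantile normalization gave 4004, 157 and 841 gene sums and 19, 0 and 6 pathway genes, with 0 members and 0 transcripts in Herb vs. OVA and in Herb vs. Saline. A minimum mean of 5 FPKM gave 3180, 2722 and 1716 gene sums, 1 member and 15 pathway genes in OVA vs. Saline and 9 pathway genes in Herb vs. Saline, and it left fewer genes to test. No minimum gave 2 transcripts in OVA vs. Saline and 2 members and 0 transcripts in Herb vs. OVA. A pseudocount of 0.1 gave 2 members in Herb vs. Saline. Fits of only the 2 groups compared gave 2 transcripts in OVA vs. Saline and 0 members and 0 transcripts in Herb vs. OVA. Folds between group means as deposited moved by over 1.5 times for Uhrf1 without Saline replicate 1, for Dnmt3a without Saline replicate 3 (2.07 to 4.08 in OVA over Saline, 1.99 to 3.92 in Herb over Saline) and for Tet3 without Herb replicate 4 (1.81 to 1.15 in Herb over OVA, 0.91 to 0.58 in Herb over Saline). The cause of these shifts was not tested.

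Directions turned with the scale of the libraries. In Herb vs. OVA the log2 differences at the common 75th percentile, a common protein-coding sum and quantile normalization were -0.42, -0.62 and -0.50 for Dnmt1 (-0.41, -0.61 and -0.45 for its transcript NM_001199433), -0.26, -0.39 and -0.26 for Dnmt3b, -0.24, -0.38 and -0.29 for Uhrf1, -0.20, -0.37 and -0.20 for Tet2, -0.12, -0.30 and -0.13 for Tet3 and -0.17, -0.29 and -0.17 for Tdg, and that of Mbd2 was -0.082 with the protein-coding sum. In OVA vs. Saline they were 0.18, 0.62 and 0.16 for Tet2 and 0.31, 0.59 and 0.19 for Tdg, and for Tet3 0.45 with the protein-coding sum and 0.019 with quantile normalization. In Herb vs. Saline the protein-coding sum gave 0.25 for Tet2 and 0.15 for Tet3. With adjacent assembled models Dnmt3a was 0.15 in Herb vs. OVA and Tet3 0.11 in Herb vs. Saline, and at the common 75th percentile Tet3 was 0.70 in OVA vs. Saline and 0.36 in Herb vs. Saline.

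Replicate numbers were not stated to pair libraries. Deviations of same-numbered libraries correlated between -0.0087 and 0.0953, and those of other pairs between -0.1703 and 0.2269. With so few libraries these values cannot show whether the numbers pair. With the replicate number as a block, OVA vs. Saline gave 1 member (Tet2 was lost), Herb vs. OVA 0 transcripts and 9 pathway genes, Herb vs. Saline 1342 gene sums, 0 transcripts and 5 pathway genes, and Uhrf1 turned to -0.064 and Tet3 to -0.082 in Herb vs. OVA. Only Herb has a replicate 4, so the block takes that library out of the comparison. Leaving out Herb replicate 4 without a block gave the same values for Uhrf1 and Tet3.

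Leaving out each library in turn gave 6143 to 6862, 3225 to 5069 and 897 to 3224 gene sums, 1 to 3, 0 to 1 and 0 to 2 members, 1 to 2, 0 to 1 and 0 to 1 transcripts, and 24 to 31, 8 to 20 and 5 to 18 pathway genes. In Herb vs. OVA it was OVA replicate 1 whose loss gave 3225 gene sums, and 9, 9 and 8 pathway genes were left without OVA replicate 1, Herb replicate 1 and Herb replicate 2. In Herb vs. Saline 1513, 897, 1354, 1537 and 1611 gene sums were left without Saline replicates 1, 2 and 3 and Herb replicates 3 and 4, and 5, 5, 11, 7 and 8 pathway genes without Saline replicates 2 and 3 and Herb replicates 1, 3 and 4. In OVA vs. Saline as deposited the log2 difference ran from -0.12 to 0.12 for Dnmt1, -0.25 to 0.035 for Tdg, -0.11 to 0.14 for Dnmt1 transcript NM_001199433. In Herb vs. OVA as deposited the log2 difference ran from -0.44 to 0.19 for Dnmt3a, -0.0096 to 0.091 for Dnmt3b, -0.14 to 0.34 for Uhrf1, -0.082 to 0.68 for Tet3, -0.026 to 0.26 for Tdg, -0.44 to 0.26 for Dnmt3a transcript NM_007872. In Herb vs. Saline as deposited the log2 difference ran from -0.040 to 0.059 for Tdg. In OVA vs. Saline at the common 75th percentile the log2 difference ran from -0.16 to 0.17 for Tet3. In Herb vs. OVA at the common 75th percentile the log2 difference ran from -0.49 to 0.0076 for Uhrf1, -0.55 to 0.26 for Tet3. In Herb vs. Saline at the common 75th percentile the log2 difference ran from -0.14 to 0.061 for Tet2, -0.57 to 0.24 for Tet3. The log2 ratios ran from -0.43 to 0.34 for Dnmt1 to Uhrf1 in Herb vs. OVA, -0.80 to 0.097 for Dnmt3a to Dnmt3b in Herb vs. OVA, -0.43 to 0.53 for Tet2 to Tet3 in Herb vs. OVA, -0.17 to 0.79 for Tet2 to Tet3 in Herb vs. Saline. Differences in the percent held by the leading transcript ran from -0.143 to 0.958 points for Dnmt1 in Herb vs. OVA, -8.59 to 0.0053 points for Dnmt3a in OVA vs. Saline, -0.153 to 8.44 points for Dnmt3a in Herb vs. OVA, -0.233 to 0.0707 points for Dnmt3a in Herb vs. Saline, -11.7 to 2.41 points for Dnmt3b in OVA vs. Saline, -1.77 to 12.3 points for Dnmt3b in Herb vs. OVA, -2.28 to 4.31 points for Dnmt3b in Herb vs. Saline. Depth limits Uhrf1, Tet1, Dnmt3b and Tdg most, which rested on as few as 16.4, 36.5, 39.3 and 39.2 estimated fragments.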
